A study of Canis lupus familiaris with 4 samples.

Results

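The Wnt pathway was followed through 10 genes that cover a ligand, a receptor, the TCF transcription factors, a secreted inhibitor and the feedback targets of the pathway: *WNT7A*, *FZD1*, *TCF7L2*, *TCF7*, *LEF1*, *DKK1*, *AXIN2*, *RNF43*, *LGR5* and *MYC*. The genes were taken by symbol, using only probe sets that the array annotation assigns to a single gene. *FZD1*, a Frizzled receptor, had no such probe set and was dropped. The other 9 genes, of 15115 genes named on the array, were measured by 18 probe sets, and every one of them is described here.

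Wnt ligands are secreted proteins that bind Frizzled receptors together with the co-receptors LRP5 and LRP6. Without a ligand, a cytoplasmic complex built on the scaffold proteins Axin and APC marks β-catenin for destruction, and with a ligand β-catenin accumulates and joins TCF and LEF proteins on the DNA to activate target genes. Several of these targets, among them *AXIN2*, *RNF43* and *DKK1*, restrain the pathway, so their mRNA is often read as a gauge of its activity. In the kidney the pathway is known for its part in nephron formation and for its return after tubular injury, and β-catenin also serves in the adherens junctions of epithelial cells.

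The RNA came from MDCKII cells, an epithelial line from canine kidney, kept for 24 h in normoxia and then for a further 24 h in normoxia or in hypoxia. At each oxygen level there was a culture labelled wild type and a culture labelled HIF2A knockdown, in which a retroviral shRNA targets *EPAS1*, the gene of HIF2α. By the study's methods its controls carried an empty shRNA cassette, infected cells were selected with puromycin, and the normoxic knockdown culture was the line HIF2α-KD#1. The cells labelled wild type are called control cells here, and the line behind the hypoxic knockdown array was not given in the sources used here. Each of the 4 conditions was hybridised to 1 Affymetrix canine array. No difference between a pair of arrays therefore has an error, and since RNA was taken from whole cultures, fewer expressing cells and less RNA per cell cannot be told apart.

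The targeted gene was read first. *EPAS1* had an intensity of 44.6 in control cells in normoxia, 47.9 on the normoxic array with the knockdown label, 116 in control cells in hypoxia and 32.6 in HIF2α-KD cells in hypoxia. The value of 32.6 was within background, below 34.0, the 95th percentile on its array of the reporter probe sets described below. On the arrays a lower *EPAS1* intensity under the knockdown label was thus seen in hypoxia alone. By RT-qPCR the study found the strongest *EPAS1* depletion of its knockdown lines in the line of the normoxic array. Whether the knockdown held in that normoxic culture was not tested here, and the normoxic array is named by its label throughout. The oxygen labels were borne out by the hypoxia targets, since 16 of 16 that passed the intensity filter described below were higher in hypoxia under both cell line labels. In control cells *ADM* was higher by 4.59 on the log2 scale, *NDRG1* by 3.92 and *ANKRD37* by 3.55. For the knockdown label in normoxia the 16 targets had a median difference of -0.21, where all genes had -0.04. Of these targets 5 were higher, and *VEGFA* was the lowest, at -1.41. Of 12 kidney epithelial markers with a probe set 9 passed the filter, and keratin 18 (*KRT18*) lay between 13256 and 13868 on the 4 arrays, whereas the kidney transcription factor genes *PAX8*, *PAX2* and *EMX2* never rose above background. E-cadherin (*CDH1*), which joins epithelial cells, had 15.5 and 18.9 in normoxia, within background, for control and knockdown label in turn. In hypoxia it had 119 and 81.4 in the same order. The study measured *CDH1* mRNA by RT-qPCR and E-cadherin protein by Western blot in normoxic MDCK cells. The low array values therefore do not show that the gene was silent in normoxia. Background was read from 64 reporter probe sets, controls for foreign sequences, whose 95th percentile lay between 21.1 and 34.0.

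Values are the deposited linear intensities. All differences are of log2(intensity + 16). The added 16 makes differences of dim probe sets smaller than the ratio of their intensities. Probe sets that differed by 1 or more, which is 2-fold on this scale, were counted. To enter the counts a probe set needed 1 array at or above the table's median of 28.6, and 17221 probe sets did. Of the 18 Wnt pathway probe sets 8 were kept, for *TCF7L2*, *WNT7A*, *AXIN2*, *MYC* and *RNF43*. The other 10, including every probe set of *LEF1*, *TCF7*, *LGR5* and *DKK1*, did not exceed the 95th percentile of the reporters on any array. As the filter uses the highest array, a dim probe set can pass it through the condition in which it is high, so the kept probe sets do not stand for the whole group.

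In hypoxia, *TCF7L2* and *WNT7A* were at least 2-fold lower in HIF2α-KD cells than in control cells, 2 of the 8 kept probe sets, where 0.859% of all kept probe sets were lower and 0.981% differed in either direction. The genes were chosen with earlier results of these data known, so such shares are no test of the group. In normoxia no probe set of the group differed 2-fold between the array with the knockdown label and the control array, where 1.16% of all did, although *TCF7L2* and *MYC* were lower by more than 1.5-fold. From normoxia to hypoxia, *WNT7A* was at least 2-fold higher in control cells, 1 of 8, where 3.6% of all probe sets were higher and 4.21% differed in either direction, and none reached 2-fold between the arrays labelled HIF2α-KD, where 1.99% of all did. The median of the 8 differences was -0.14 in normoxia and -0.17 in hypoxia for the knockdown, where all kept probe sets had -0.04 in both, and 0.11 and 0.20 for hypoxia in control and knockdown cells, where all had 0.04 in both.

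**Figure D1:**
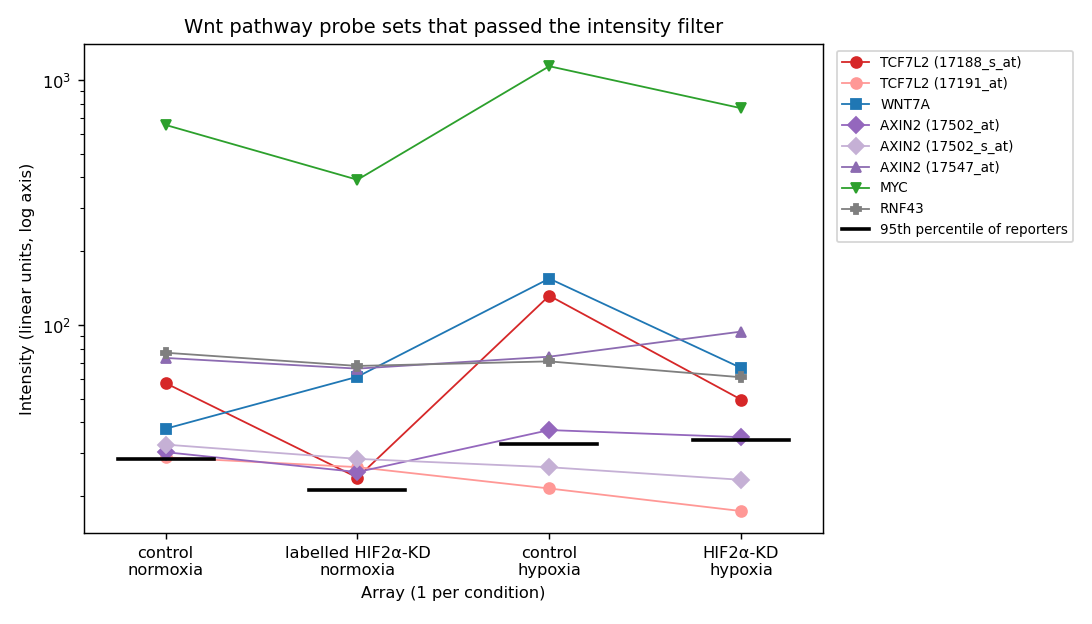
Intensity on a log axis of the 8 kept probe sets of *TCF7L2*, *WNT7A*, *AXIN2*, *MYC* and *RNF43* on the 4 arrays, 1 point per array and no error bars, with thin lines that only join the points of a probe set and black bars at the 95th percentile of the reporters. *TCF7L2* (red circles) and *MYC* (green) are highest in control cells in hypoxia and lowest on the normoxic array with the knockdown label, whereas *WNT7A* (blue) stands at 155 in control cells in hypoxia and between 37.7 and 66.8 elsewhere.

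*TCF7L2* encodes the TCF protein that most epithelia use to switch on Wnt target genes, and it was the only TCF or LEF gene of the group with a probe set above background. Its brightest probe set, with the suffix _s_at, had an intensity of 57.9 in control cells and 23.8 under the knockdown label in normoxia, and of 132 in control cells and 49.6 in HIF2α-KD cells in hypoxia. The control array was the higher at both oxygen levels, and the hypoxic array was the higher under both cell line labels. The knockdown differences were -0.89 in normoxia, a 2.43-fold lower intensity, and -1.17 in hypoxia, a 2.65-fold lower intensity. These comparisons share no array, and the differences lay at the 0.877th and the 0.366th percentile of all kept probe sets. The value of 23.8 was close to background, as the 95th percentile of the reporters on its array was 21.1. Over the scalings and pseudocounts the normoxic knockdown difference ran from -1.25 to -0.47. The hypoxia differences were 0.998 in control cells, just under the 2-fold line, and 0.72 between the arrays labelled HIF2α-KD.

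An additive limma model of the 4 arrays, with a term for oxygen and another for the knockdown label, has a single residual degree of freedom. It takes the knockdown difference to be equal at both oxygen levels and counts any departure from that as residual. For this probe set it gave an oxygen term of 0.86 ± 0.16 (SE; limma, adjusted p = 0.0271) and a knockdown term of -1.03 ± 0.16 (SE; limma, adjusted p = 0.0937), so that *TCF7L2* was called higher in hypoxia and not called for the knockdown. The oxygen term called 2 of the 8 probe sets, those of *TCF7L2* and *MYC*, both as higher, where it called 5.17% of all kept probe sets and 4.13% as higher. The knockdown term called 0.0755% of all and none of the 8. The oxygen call was lost, at an adjusted p of 0.157 in limma, when no probe set was filtered out.

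The other probe sets of *TCF7L2* did not show these differences. The next brightest, which passed the filter only through its value of 28.8 in control cells in normoxia, had 26.3 under the knockdown label in normoxia, 21.5 in control cells in hypoxia and 17.4 in HIF2α-KD cells in hypoxia, and was above the 95th percentile of the reporters only on the normoxic arrays. Its hypoxia differences were -0.26 and -0.34, opposite in sign to those of the brighter probe set, and its knockdown differences were -0.08 and -0.17. With the mean of both kept probe sets the oxygen term for *TCF7L2* was 0.28 ± 0.16 (SE; limma, adjusted p = 0.367), which ends the call. The third probe set was at the floor of the table, between 1.00 and 1.91. The suffix _s_at marks, in the naming of the manufacturer, probes that match more than 1 transcript, and which transcripts of *TCF7L2* each probe set reads was not tested.

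*MYC*, a growth-promoting transcription factor gene and a classical target of β-catenin and TCF, was, like *TCF7L2*, highest in control cells in hypoxia and lowest on the normoxic array with the knockdown label. Its single probe set had an intensity of 654 in control cells and 391 under the knockdown label in normoxia, and of 1136 in control cells and 766 in HIF2α-KD cells in hypoxia. All 4 values lay above the 95th percentile of the reporters. The knockdown differences were -0.72 in normoxia and -0.56 in hypoxia, intensities 1.67-fold and 1.48-fold lower, and none reached 2-fold. They lay at the 1.93rd and the 6.0th percentile of all kept probe sets. The hypoxia differences were 0.78 in control cells and 0.94 between the arrays labelled HIF2α-KD, intensities 1.74-fold and 1.96-fold higher. The oxygen term was 0.86 ± 0.15 (SE; limma, adjusted p = 0.0197), past the threshold, and the knockdown term was -0.64 ± 0.15 (SE; limma, adjusted p = 0.171), which did not pass it. Without a filter the adjusted p of the oxygen term in limma was 0.1.

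*WNT7A*, the ligand of the group, had a different order of arrays. Its single probe set had an intensity of 37.7 in control cells and 61.5 under the knockdown label in normoxia, and of 155 in control cells and 66.8 in HIF2α-KD cells in hypoxia. The control array in hypoxia stood apart, and the remaining values lay between 37.7 and 66.8. The hypoxia difference was 1.67 in control cells, a 4.10-fold higher intensity at the 99.3rd percentile of all kept probe sets, and 0.10 under the knockdown label. The knockdown difference was -1.04 in hypoxia, a 2.31-fold lower intensity, and 0.53 in normoxia, a 1.63-fold higher intensity. The hypoxia difference was thus smaller by 1.57 on the log2 scale under the knockdown label (a value of -1.57), which was not tested, because a fit with that term has no residual over 4 arrays. The additive fit called neither term for *WNT7A*, with an oxygen term of 0.88 ± 0.32 (SE; limma, adjusted p = 0.152) and a knockdown term of -0.26 ± 0.32 (SE; limma, adjusted p = 0.859). In that fit the value of -1.57 counts as residual and widens both standard errors.

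Other genes were also highest on the hypoxic control array. All 16 kept hypoxia targets were, by their brightest probe sets, higher in control cells in hypoxia than in control cells in normoxia. None was higher in HIF2α-KD cells than in control cells in hypoxia, with a median difference of -0.49 where all genes had -0.04. *EPAS1* itself had 116 there and between 32.6 and 47.9 elsewhere. The fibroblast marker *PDGFRA*, a growth factor receptor gene, had 145 there, 75.7 in HIF2α-KD cells in hypoxia, and 31.5 and 33.8 in normoxia. It was the only 1 of 7 fibroblast markers to pass the filter, so that the summed level of the list is its own, and the collagen genes *COL1A1*, *COL1A2* and *COL3A1* stayed below the 95th percentile of the reporters on every array. Of 6 endothelial markers 5 stayed below it too, and *CDH5* was the exception. The summed intensities of the 2 endothelial markers that passed the filter lay between 118 and 137. All 5 immune markers with a probe set passed the filter, and none of them stayed below the 95th percentile on every array. Their sum lay between 147 and 183. The part of such cells in the values of *WNT7A* and *TCF7L2* was not tested.

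**Figure D2:**
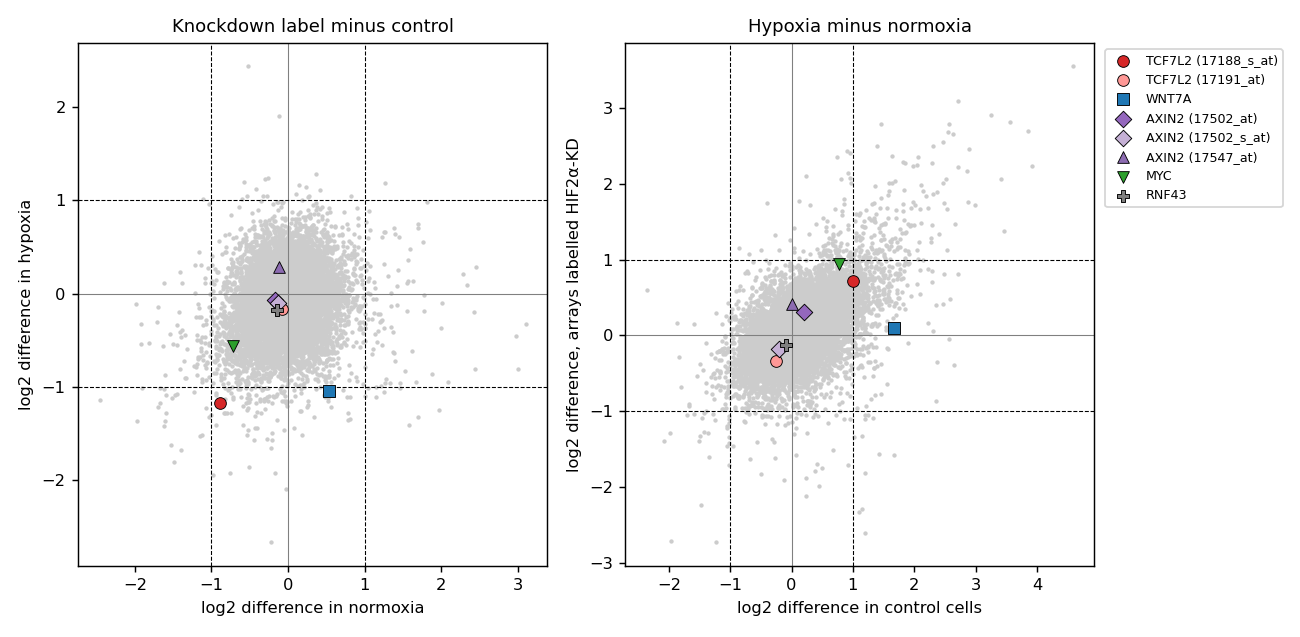
Log2 differences between arrays of all 17221 kept probe sets (grey) and of the 8 Wnt pathway probe sets (coloured), for the knockdown label against control in normoxia and in hypoxia (left) and for hypoxia against normoxia in control cells and between the arrays labelled HIF2α-KD (right). The axes of each panel share no array, and dashed lines mark 2-fold. *TCF7L2* (red circle) at -0.89 and -1.17 and *MYC* at -0.72 and -0.56 lie in the lower left of the left panel, and *WNT7A* lies to the right of the 2-fold line in the right panel, at 1.67 and 0.10.

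*AXIN2*, which encodes a scaffold of the destruction complex and is a widely used readout of Wnt activity, had 6 probe sets, of which 3 were kept, and none of them differed 2-fold in any comparison. The brightest had 73.3 in control cells and 66.3 under the knockdown label in normoxia, and 74.2 in control cells and 93.9 in HIF2α-KD cells in hypoxia. Its differences were -0.12 and 0.29 for the knockdown in normoxia and in hypoxia, and 0.01 and 0.42 for hypoxia in control and knockdown cells, of which 0.01 was negative under quantile normalization and other scalings. The other kept probe sets lay between 25.1 and 37.3 and, for the one with the suffix _s_at, between 23.4 and 32.5. They disagreed on hypoxia, with 0.20 and -0.20 in control cells. In limma no kept probe set of *AXIN2* was called for either term, with adjusted p from 0.449 to 0.605 for oxygen and from 0.885 to 0.914 for the knockdown. The other 3 probe sets of *AXIN2* lay between 1.64 and 15.5.

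*RNF43*, whose product is a ubiquitin ligase that removes Frizzled receptors from the cell surface, differed little between the arrays. Its intensity was 77.02 in control cells and 68.0 under the knockdown label in normoxia, and 71.0 in control cells and 61.2 in HIF2α-KD cells in hypoxia. The largest of its differences was -0.17, for the knockdown in hypoxia. The limma terms were -0.16 ± 0.15 (SE; adjusted p = 0.804) for the knockdown and -0.11 ± 0.15 (SE; adjusted p = 0.715) for oxygen. With 1 array per condition these values do not show that *RNF43* was unchanged.

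**Figure D3:**
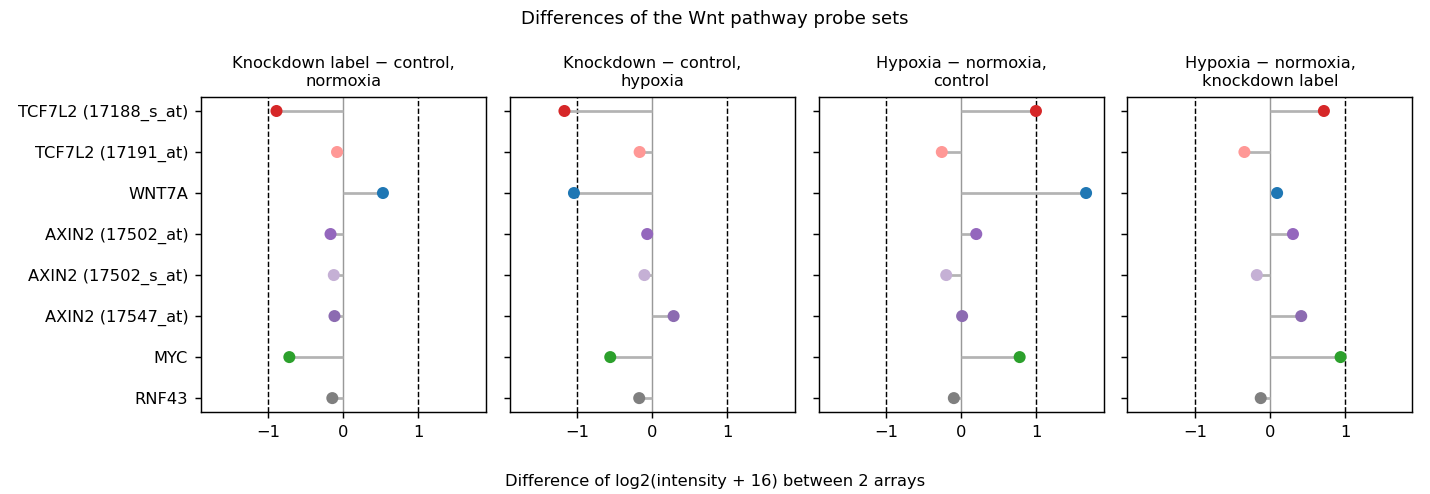
Differences of log2(intensity + 16) between a pair of arrays for the 8 kept probe sets in the 4 comparisons, with dashed lines at 2-fold and no error bars. The bright probe set of *TCF7L2* and *MYC* lie on the same side of 0 within each pair of comparisons, *WNT7A* crosses from 0.53 to -1.04 for the knockdown, and the probe sets of *AXIN2* and *RNF43* lie between -0.20 and 0.42.

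The remaining factors, the stem cell receptor and the secreted inhibitor were at background. *LEF1*, whose product is the TCF relative best known from lymphocytes and from mesenchyme, had 2.84, 4.00, 3.42 and 4.65 at the probe set with the suffix _s_at and 5.75, 4.00, 3.33 and 2.75 at the other, in the order control and knockdown label in normoxia, then control and HIF2α-KD in hypoxia. *LGR5*, a receptor for R-spondins that marks stem cells of the intestine, lay between 1.00 and 5.49. *DKK1*, the gene of a secreted protein that blocks LRP5 and LRP6, had 14.2 and 8.02 in normoxia and 16.9 and 13.5 in hypoxia. The reporters had medians of 5.58 to 7.24 on the same arrays, so no direction is drawn for these genes.

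*TCF7* encodes the TCF protein that was first described in T cells. Its probe set with the suffix _at lay between 5.42 and 11.5. That with the suffix _s_at had 5.52 in control cells and 2.46 under the knockdown label in normoxia, and 26.3 in control cells and 3.70 in HIF2α-KD cells in hypoxia. The value of 26.3 stands above the other arrays but below 32.8, the 95th percentile of the reporters on that array. The log2 difference of this probe set was -1.10 for the knockdown in hypoxia, which would be counted only without the filter. The other probe set of *TCF7* had 11.5 and 11.1 in the same cultures and did not differ.

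**Figure D4:**
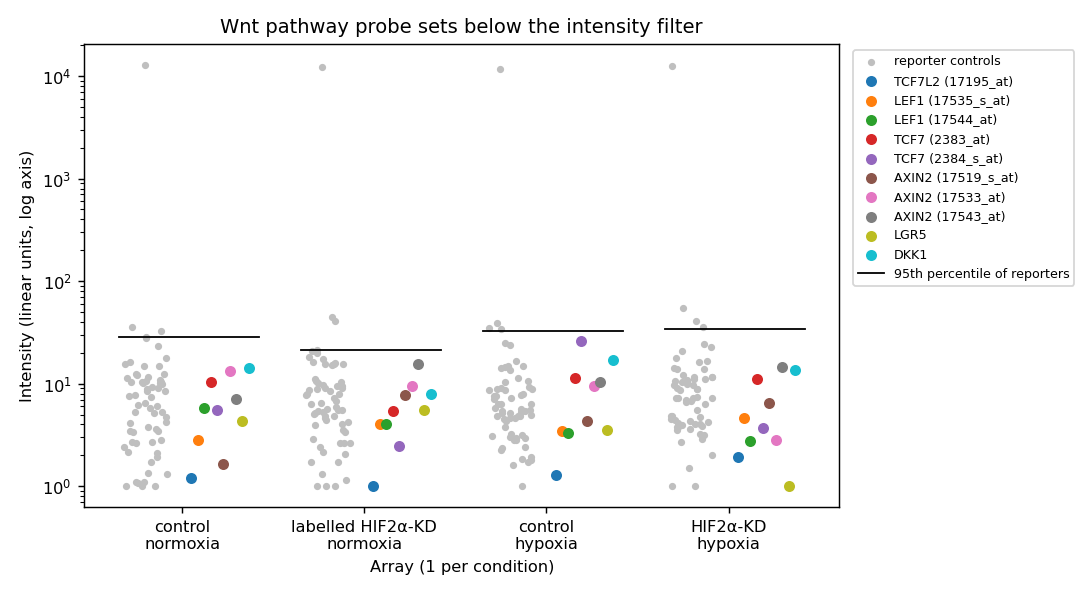
Intensity on a log axis of the 10 probe sets that did not pass the filter (coloured) beside the 64 reporter probe sets (grey) on each array, with black lines at the 95th percentile of the reporters and 1 reporter near the top of the scale. Every coloured point lies below the line of its array, and the highest, *TCF7* (the probe set with the suffix _s_at) in control cells in hypoxia, is at 26.3.

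The wider pathway was read from 7 lists ordered by role, each gene by its brightest kept probe set. For genes counted in this way, 1.16% of 9766 differed 2-fold for the knockdown label in normoxia, 0.983% for the knockdown in hypoxia, 3.58% for hypoxia in control cells (3.04% were higher), and 1.8% for hypoxia between the arrays labelled HIF2α-KD. By their brightest kept probe sets, none of the genes in the lists was called by limma for the knockdown.

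Most Wnt ligands were at background. Of 19 genes with a probe set in the list of ligands and their secretion factors, 12 did not exceed the 95th percentile of the reporters on any array, and 7 passed the filter. *WNT5B*, the gene of a ligand known for signalling without β-catenin, had 16.5 and 27.3 in normoxia and 56.4 and 20.3 in hypoxia, for control and knockdown label in turn. Its hypoxia difference in control cells was 1.16, and its knockdown difference in hypoxia was -0.997, just under 2-fold. Its values in control cells in normoxia and in HIF2α-KD cells in hypoxia were below the 95th percentile of the reporters, so each of these differences rests on a value within background. By their brightest probe sets *WNT5B* and *WNT7A* were the ligands that reached 2-fold for hypoxia, both in control cells. The probe sets of *WLS*, whose product carries Wnt proteins to the cell surface, disagreed on hypoxia. Its brightest had 4505 and 4223 in normoxia and 5161 and 5110 in hypoxia, a difference of 0.20 in control cells. The next had 874 and 857 in normoxia and 2010 and 1762 in hypoxia, differences of 1.19 and 1.03, and was called by the oxygen term of limma (adjusted p = 0.00594), as was 1 of the other probe sets (adjusted p = 0.0171).

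Of 9 kept receptors and co-receptors none differed 2-fold. The list median was -0.22 for the knockdown label in normoxia and -0.25 for the knockdown in hypoxia, where the median of all genes was -0.04 in both. *FZD7*, a Frizzled gene, had 49.2 and 25.95 in normoxia and 56.4 and 24.4 in hypoxia, for control and knockdown label in turn. Its knockdown differences of -0.64 and -0.84 were the largest of the list, and limma did not call them (adjusted p = 0.179). The value of 24.4 was below the 95th percentile of the reporters on its array. The co-receptor gene *LRP6* had 122 and 111 in normoxia and 234 and 162 in hypoxia, with hypoxia differences of 0.85 and 0.48 (limma oxygen term, adjusted p = 0.0514).

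Of the secreted modulators 5 of 18 were kept and none differed 2-fold. *FRZB*, which encodes a soluble relative of Frizzled that captures ligands, differed by 0.76 and 0.47 for hypoxia in control and knockdown cells. The R-spondin gene *RSPO4* differed by 0.60 and 0.56 in the same order. Its values were 23.4 and 13.3 in normoxia and 43.9 and 27.15 in hypoxia, for control and knockdown label in turn. Only the hypoxic control value was above background. The difference of 0.60 therefore rests on a normoxic value within background, and that of 0.56 lies wholly within it. Among the R-spondin receptors and their ubiquitin ligases, 4 of 5 were kept. *ZNRF3*, the gene of the partner ligase of *RNF43*, had 46.2 and 46.1 in normoxia and 58.2 and 25.3 in hypoxia, a knockdown difference of -0.84 in hypoxia and of -0.003 in normoxia. The value of 25.3 was below the 95th percentile of the reporters on its array. *LGR6* differed by at most 0.30 in size, with -0.30 for the knockdown in hypoxia.

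Of 18 genes of the destruction complex and its regulators 14 were kept, and none differed 2-fold. *GSK3B*, the kinase that marks β-catenin, had 388 and 232 in normoxia and 612 and 364 in hypoxia, for control and knockdown label in turn, with knockdown differences of -0.70 and -0.73 and hypoxia differences of 0.64 and 0.62. Its highest and lowest arrays were those of *TCF7L2* and *MYC*. *CSNK1A1*, the priming kinase, had knockdown differences of -0.56 and -0.50. In limma the knockdown terms of *GSK3B* and *CSNK1A1* had adjusted p of 0.142 and 0.122.

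Of 12 genes of TCF factors and nuclear partners with a probe set 7 were kept. Their medians for hypoxia were 0.31 in control cells and 0.70 between the arrays labelled HIF2α-KD, where all genes had 0.03 and 0.02. The oxygen term of limma called 2 of the 7 as higher, where it called 5.17% of all kept probe sets and 4.13% as higher. These were *TCF7L2*, by the probe set described above, and *TLE1*, a Groucho corepressor gene that TCF proteins recruit in the absence of β-catenin. *TLE1* had 720 and 526 in normoxia and 1104 and 917 in hypoxia, for control and knockdown label in turn (limma oxygen term, adjusted p = 0.0381). Its relative *TLE4* had 67.5 and 78.2 in normoxia and 134 and 84.3 in hypoxia, a hypoxia difference of 0.84 in control cells and of 0.09 between the arrays labelled HIF2α-KD. *TCF7L1*, which with *TCF7L2*, *TCF7* and *LEF1* completes the TCF family, was at background, between 1.00 and 23.0 over its 2 probe sets.

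Of the 14 kept feedback and target genes 3 were at least 2-fold higher in hypoxia in control cells and none between the arrays labelled HIF2α-KD. They were *JUN* (1.51), *CD44* (1.16) and *CCND1* (1.11), genes of a transcription factor, an adhesion receptor and a cyclin that many other pathways also control. *JUN* had 838 and 621 in normoxia and 2422 and 1062 in hypoxia, for control and knockdown label in turn, and was called by the oxygen term of limma (adjusted p = 0.0190). Its knockdown difference in hypoxia was -1.18. *CCND1* had 674 and 1460 in normoxia and 1478 and 1225 in hypoxia, a knockdown difference of 1.10 in normoxia and of -0.27 in hypoxia, and its other probe set had 464, 1085, 996 and 803 in the same order. *CCND1* was thus higher, and *MYC* lower, on the normoxic array with the knockdown label. The median knockdown difference of the 14 targets in normoxia was -0.05, where all genes had -0.04. The feedback genes *NKD1* and *SP5*, which respond to the pathway in many tissues, were in the range of the reporters on every array.

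**Figure D5:**
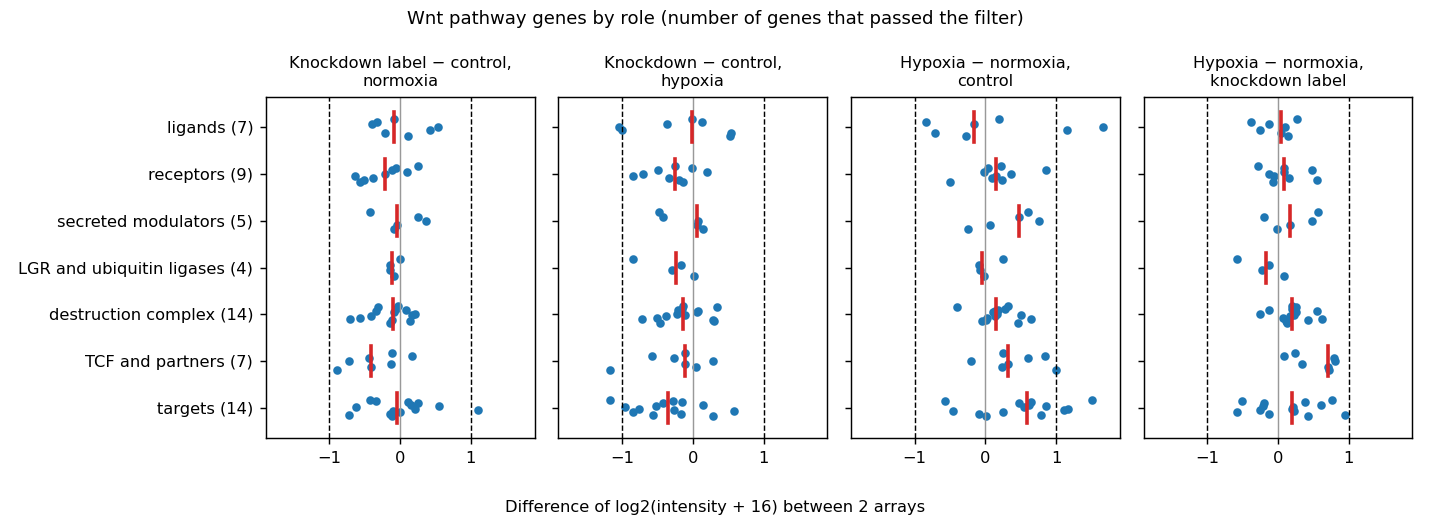
Differences of log2(intensity + 16) between a pair of arrays for the genes of each Wnt pathway list, 1 point per gene at its brightest kept probe set, the number of genes in brackets, red bars at the list medians and dashed lines at 2-fold. A gene can stand in 2 lists. Most medians lie between -0.25 and 0.31, with -0.41 for the TCF factors and partners and -0.35 for the targets for the knockdown in normoxia and in hypoxia in turn, 0.58 for the targets and 0.48 for the secreted modulators for hypoxia in control cells, and 0.70 for the TCF factors and partners for hypoxia under the knockdown label.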

How the data were processed

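The authors made biotinylated target from total RNA with the Affymetrix 3' procedure and hybridised 1 canine array per condition. The deposited values are linear intensities, 42924 probe sets per array. How they were summarized, background-corrected and scaled is not given in the sources used here. Array medians lay between 28.2 and 29.1. The array annotation names 1 gene for 29254 probe sets, several for 439 and none for 13167. A further 64 are reporters.

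Differences of log2(intensity + 16) between arrays were computed here without a test, as there is 1 array per condition, and counted at 2-fold. limma 3.58.1 in R 4.3.3 was fitted over all kept probe sets with 1 symbol, with additive oxygen and knockdown terms and the trend option of eBayes. P-values were adjusted by Benjamini-Hochberg with a threshold of 0.05. The fit had been tested only on simulated data with equal noise for every probe set and purely additive changes. That test does not show how reliable the calls are on the real arrays. For each probe set the single residual is how far the knockdown difference changed between the oxygen levels, moderated by the residuals of all kept probe sets. The p-values and standard errors therefore do not measure a spread between replicates. Figures and tables were made with Python 3.11.15, numpy 2.4.6, pandas 2.3.3 and matplotlib 3.10.9.

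All probe sets of the 10 genes are reported. From the other lists those at 2-fold were named or, where fewer than 2 reached it, the 2 with the largest difference. *CDH1*, *PDGFRA* and other cell markers, *WLS*, *TLE1*, *TCF7L1*, *NKD1* and *SP5* were named after their values were seen. The genes and lists were chosen with earlier results of these data known. The number of arrays limits the precision. No genome or sequence was used, so no coordinates or sequences are given. The counts over the 10 genes and the limma calls were repeated after median centring, quantile or cyclic loess normalization, with pseudocounts of 1 and 64, unfiltered or filtered at the 75th percentile, and per gene by the mean or brightest probe set. For the wider lists only the medians and the values of single genes were recomputed, under the scalings and pseudocounts. Array pairs were also counted at 1.5-fold, and limma was run with robust moderation and with no trend.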

Additional observations from a re-analysis of the deposited data

How the results depend on the processing

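No paired analysis was possible because each condition has 1 array and the labels give no replicate numbers. For the knockdown in normoxia the count of Wnt pathway probe sets at 2-fold rose from 0 to 1 (*TCF7L2*) with a pseudocount of 1 and to 2 at a 1.5-fold threshold. For the knockdown in hypoxia it fell from 2 to 1 with quantile normalization (*TCF7L2*) and with the mean per gene (*WNT7A*), and to 0 with a pseudocount of 64 and with the filter at the 75th percentile, which keeps *MYC* alone. For hypoxia in control cells it rose from 1 to 2 with a pseudocount of 1 and to 3 at 1.5-fold, and was 0 with the stricter filter. For hypoxia between the arrays labelled HIF2α-KD it rose from 0 to 1 with a pseudocount of 1 and to 2 at 1.5-fold.

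Over all probe sets, limma called 13 for the knockdown. It called 0 with cyclic loess, no filter, no trend, the brightest probe set or the mean per gene (1564, 2160, 1738, 940 and 893 at an unadjusted p under 0.05), 8 with the stricter filter, 20 with quantile normalization, 21 and 22 with pseudocounts of 1 and 64, 22 with median centring and 32 with robust moderation. For oxygen it called 891, and 500 without the trend, 281 and 210 per gene and 54 without a filter. The adjusted p of the knockdown term of *TCF7L2* in limma lay between 0.0707 and 0.534, and that of *MYC* between 0.124 and 0.534. For oxygen these ranges were 0.0206 to 0.367 and 0.0112 to 0.1. Among all results for single probe sets of the group, 3 calls were lost, those given in the report, and no counted difference changed sign. With pseudocounts of 1 and 64 the probe sets at 2-fold over the whole table numbered 438 and 103 for the knockdown in normoxia, against 199, and 407 and 48 in hypoxia, against 169. For hypoxia they were 1242 and 341 in control cells, against 725, and 687 and 165 under the knockdown label, against 342. The cause of these shifts was not tested.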
